A study of Homo sapiens with 12 samples.

Results

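The comparison asks which cytoplasmic RNAs that were left after digestion with Xrn1 differed in level when K294A was induced. It uses 6 of the series' 12 arrays, all those labelled as Xrn1-treated: 3 from doxycycline-induced cells and 3 from uninduced cells, with all 16883 measured genes. Both groups are U2OS, a human osteosarcoma line, stably expressing K294A, so the uninduced cells carry the construct as well. Induced cells received doxycycline at 1 ug/ml for 24 h and uninduced cells none. Cytoplasmic RNA of both groups was depleted of ribosomal RNA, digested in vitro with Xrn1 and hybridised to exon arrays. The other 6 arrays hold RNA of the same induced and uninduced groups without Xrn1. The labels call the arrays of a group biological replicates and do not say whether they came from separate cultures, so each p measures only the spread between these samples, which may be technical. A control line without K294A that received doxycycline was not analysed here, so effects of the drug and of the protein cannot be told apart.

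Most mRNAs carry a methylated guanosine cap at their 5′ end, which protects them from 5′ to 3′ exonucleases. Xrn1 is such an enzyme: it degrades RNA with a 5′ monophosphate and leaves capped RNA, as well as RNA whose 5′ end is otherwise blocked, largely intact. A cytoplasmic complex built around the capping enzyme can restore a cap on RNA that lost it. K294A is a catalytically inactive form of the capping enzyme that is used to block this activity, and the series set out to find the substrates of re-capping.

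Levels are given as gene values, the mean log2 value of a gene's probe sets on an array, and changes as induced minus uninduced on the same log2 scale. A change of 1 is a doubling. RMA, named in the submitters' processing notes, sets the probe intensities of all arrays to a common distribution before they are summarised. A change is therefore relative to the rest of the RNA on the array and not to the amount of RNA that survived digestion. The deposited probe set values were not fully equalised, with array medians from 2.09 to 2.25. Probes differ in brightness, so a difference in level between genes is not read as a difference in abundance. In bulk RNA, fewer cells with an RNA and less of it per cell cannot be told apart.

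One array stood apart. Uninduced Xrn1 replicate 2 correlated with the other Xrn1 arrays at r = 0.679 to 0.847 across genes, which are not independent replicates, whereas the other 5 correlated with one another at 0.906 to 0.959. Results are therefore given with and without this array where it matters. The median SD of a gene was 0.16 in the induced group and 0.33 in the uninduced group. The median gene value lay between 3.36 and 3.47 on the induced arrays and between 3.18 and 3.28 on the uninduced arrays. The number of arrays limits precision: the standard error of a change was 0.34 for every gene in the fit of all 12 arrays, in which limma gave all genes a common SD of 0.418. The osteosarcoma identity was checked with 10 markers, of which COL1A1 had mean levels of 8.19 induced and 8.43 uninduced and SPARC 6.60 and 6.79. The bone regulator RUNX2 had 3.29 and 3.11, COL1A2 3.88 and 3.83, and CD44 4.28 and 3.43. Means of RUNX2, COL1A2 and CD44 lay within the range of the markers of other cell types, and those of the other 7 lay above it. Of 25 markers of other cell types fixed for this check 19 were measured, with mean levels between 2.41 and 4.33, and their summed level was 65.0 to 67.0 on induced and 58.3 to 65.0 on uninduced arrays; their part in the results was not tested.

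With K294A induced, 9 genes rose and 1 fell in RNA left after Xrn1. The 9 were 2 cytosolic ribosomal protein mRNAs (RPS13 and RPL41), 2 interferon-induced membrane proteins (IFITM3 and IFITM2), the mitochondrially encoded ND4, and TMEM258, RTL8A, HSPB8 and UXT. The gene that fell was CD302. These calls come from limma's moderated test across all 12 arrays at a Benjamini-Hochberg adjusted p under 0.05; they are 0.0533% and 0.00592% of the genes tested, and 1534 genes had an unadjusted p under 0.05. The induced and uninduced values of these 10 genes did not overlap. With each gene's own spread in place of the common one, limma called 0 genes, and 1285 had an unadjusted p under 0.05. Centring each array on its median gene left 3 of the 9 and CD302 past the threshold with 12 arrays, and cyclic loess left 4 and CD302; the sign of no change among the 10 turned.

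RPS13, a protein of the small ribosomal subunit, had the largest change. Its values were 6.36, 5.56 and 6.38 on the induced arrays and 4.00, 3.87 and 3.81 on the uninduced arrays. The lowest induced value lay well above the highest uninduced one, all 9 of its probe sets were higher, and the change was 2.21 (limma adjusted p = 1.8e-06). RPL41, a very short protein of the large subunit, had 7.68, 7.48 and 8.19 against 5.75, 6.15 and 6.21. All induced arrays were above all uninduced ones, the change was 1.75 (limma adjusted p = 0.00184), and 14 of its 15 probe sets were higher. Ribosomal protein genes have many near-identical processed copies in the genome, and the probes of both genes may also read those.

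IFITM3 and IFITM2 restrict the entry of viruses into cells and are induced by interferon. IFITM3 had 4.25, 3.73 and 4.36 on induced and 2.64, 1.94 and 2.53 on uninduced arrays, a change of 1.74 (limma adjusted p = 0.00184). IFITM2 had 5.81, 5.61 and 5.81 against 4.53, 3.47 and 4.51, a change of 1.57 (limma adjusted p = 0.0137). In both genes uninduced replicate 2 was the lowest array, and the other uninduced arrays still lay below every induced one. The genes are near-identical in sequence and rest on 3 and 4 probe sets, so their signals may not be separate. Among the 30 measured members of the interferon and RNA sensor list, these were the only genes that passed, in the fit of 12 arrays as in that of the 6 Xrn1 arrays alone. The next members by p, IFI27 and IFIT5, changed by 0.72 and 0.69 without passing (limma adjusted p = 0.534 for each).

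ND4, a subunit of respiratory complex I made from mitochondrial DNA, had 8.03, 7.51 and 8.12 on induced and 5.96, 6.13 and 6.49 on uninduced arrays. The change was 1.70 (limma adjusted p = 0.00292) and all 5 of its probe sets were higher. TMEM258, a small subunit of the oligosaccharyltransferase of the endoplasmic reticulum, had 5.25, 5.34 and 6.08 against 4.39, 3.72 and 4.07, a change of 1.5 (limma adjusted p = 0.0286). The group values of both genes were apart, with less room between them for TMEM258.

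RTL8A, a gene derived from a retrotransposon capsid, had 4.72, 4.36 and 5.13 on induced and 3.14, 2.83 and 3.65 on uninduced arrays, a change of 1.53 (limma adjusted p = 0.0211). HSPB8, a small heat shock protein, had 3.49, 3.13 and 3.48 against 1.90, 2.11 and 1.75, a change of 1.45 (limma adjusted p = 0.0422). UXT, a subunit of a prefoldin-like complex, had 4.31, 3.88 and 4.82 against 3.26, 2.34 and 3.13. Its change of 1.43 was just inside the threshold (limma adjusted p = 0.0498). CD302, a C-type lectin receptor, went the other way: 1.77, 2.53 and 2.17 induced against 3.49, 4.01 and 3.36 uninduced, a change of -1.46 (limma adjusted p = 0.04). CD302 and HSPB8 rest on 3 probe sets each. CD302 had low values on all arrays. The uninduced mean of HSPB8, 1.92, lay below the lowest median probe set value of any array, 2.09.

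**Figure D1:**
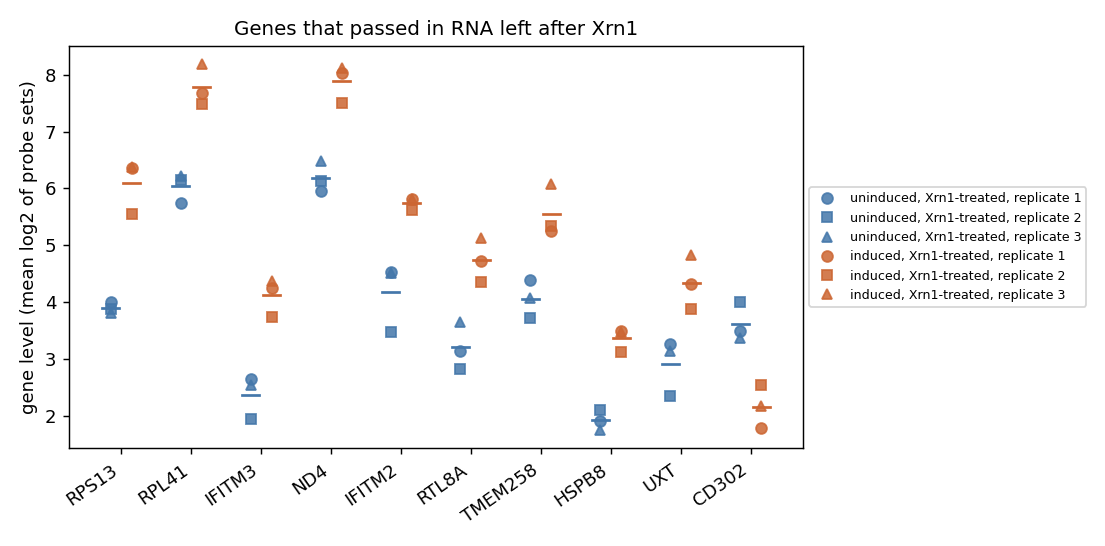
Gene values (mean log2 of probe sets) of the 10 genes that passed, on the 3 uninduced (blue) and 3 induced (orange) Xrn1-treated arrays; symbols mark the replicate and bars the group mean. The induced and uninduced symbols do not overlap for any of the 10 genes, and CD302 is the only one with lower induced values.

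Without uninduced Xrn1 replicate 2, 2 of these genes passed in the fit of the remaining 11 arrays: RPS13 with a change of 2.19 and RPL41 with 1.8. The others then had changes of 1.66 for ND4, 1.54 for HSPB8, 1.53 for IFITM3, 1.34 for RTL8A, 1.33 for TMEM258, 1.22 for IFITM2, 1.14 for UXT and -1.27 for CD302. Leaving out any other Xrn1 array left between 1 and 6 genes higher and 0 lower: 1 without induced replicate 1, 4 without induced replicate 2, 1 without induced replicate 3, 3 without uninduced replicate 1 and 6 without uninduced replicate 3.

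A fit of the 6 Xrn1 arrays alone, where the common SD was 0.3, called 991 genes higher and 43 lower (limma adjusted p under 0.05), or 5.87% and 0.255% of the genes tested. It holds all 10 genes above, which had to pass, since the same changes were set against a smaller common SD. The median change of the 991 was 0.82, with median levels of 4.03 induced and 3.17 uninduced, and 936 of them did not overlap between groups. The 43 lower genes had median levels of 2.10 and 2.93, and 29 of them did not overlap. Of the 43, 2 had a level above 5: RN7SK, below, and the histone H2AC21 (6.73, 6.47 and 7.27 against 7.62, 7.63 and 7.56, named after its values were seen). Leaving out uninduced replicate 2, this fit called 257 higher (1.52%) and 9 lower (0.0533%), and all 10 genes above still passed. They also passed with each other Xrn1 array left out of it, when it called 67 higher without induced replicate 1, 331 without induced replicate 2, 35 without induced replicate 3, 4576 without uninduced replicate 1 and 600 without uninduced replicate 3; the genes called lower then numbered 1, 8, 1, 675 and 12.

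The whole distribution was shifted upwards. The median change over all genes was 0.28, 68.9% of genes had a positive change, and the groups did not overlap for 5276 genes that were higher (31.3%) and 528 that were lower (3.13%). Without uninduced Xrn1 replicate 2 the median change was 0.18. By level, with all arrays, the median change was 0.18 for genes under 2.5, 0.06 between 2.5 and 3, and between 0.26 and 0.37 for genes above 3; without that array it was 0.05 for genes under 2.5. Centring each array on its median gene reduced the median change to 0.08, and cyclic loess to 0.01. After centring, the fit of 6 arrays called 110 genes higher and 121 lower, so that 47.6% of the calls were higher in place of 95.8%, and after loess 54 higher and 32 lower, or 62.8%. All 10 genes above remained among these calls. A small positive change thus has the sign of the shift. Members of the lists below are read against the median of 0.28 and the 5.87% called higher in the fit of 6 arrays. Where uninduced replicate 2 is left out, they are read against 0.18 and 1.52%. After centring the reference in the fit of 6 arrays is 0.08 and 110 of 16883 genes higher, and after loess 0.02 and 54 genes. Counts of higher genes without overlap are read against 31.3%. Genes that are silent outside their own tissue, measured as a reference for low signal, had a median change of 0.16 over 27 genes; 0 of them passed and 8 did not overlap (29.6%), among them the protamines PRM1 (0.67) and PRM2 (0.71) and the lens crystallin CRYAA (0.72).

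**Figure D2:**
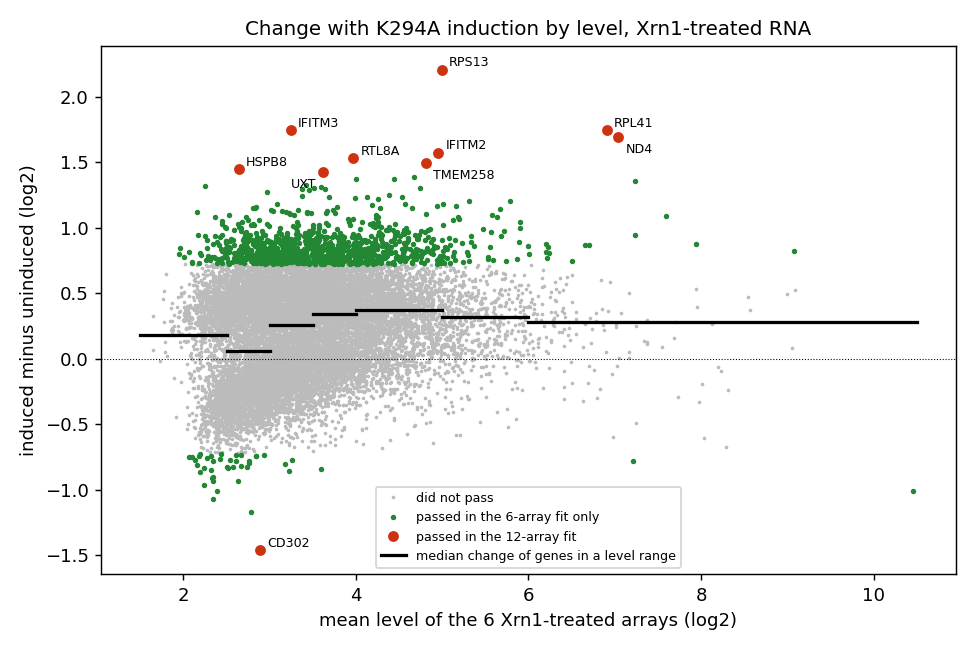
Change with induction (induced minus uninduced, log2) against the mean gene value of the 6 Xrn1-treated arrays, 1 point per gene; red points passed in the fit of 12 arrays, green points only in that of 6 arrays, and black bars are medians in ranges of level. The bars lie above 0 at every level, between 0.06 and 0.37, and the green points below 0 are mostly genes of low level.

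The enzymes of capping itself did not pass. RNGTT, the human capping enzyme, had 2.70, 2.28 and 2.45 on induced and 2.37, 3.23 and 2.76 on uninduced arrays, a change of -0.31 with a 95% interval of -0.98 to 0.36 (limma adjusted p = 0.659). The groups overlapped. Whether its probes also read the K294A transcript was not tested, so RNGTT does not check the labels. NCK1, the adaptor that joins the cytoplasmic capping complex, changed by -0.32 (95% interval -0.99 to 0.35). Of the 15 measured genes for capping, cap methylation and cap binding 0 passed in either fit, and their median change was -0.03, with 7 positive and 8 negative. PCIF1, which methylates an adenosine next to the cap, had the largest change, 0.72: 3.96, 3.91 and 3.89 against 3.31, 2.91 and 3.39. Its groups did not overlap, but it passed in neither fit (limma adjusted p = 0.534 and 0.0518 with 12 and 6 arrays), and nor did the cap methyltransferase CMTR2 with 0.69.

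Published work on cytoplasmic capping names mRNAs that were followed as substrates or as controls, and 8 of 11 were measured. Their median change was 0.22, and 1 passed in the fit of 6 arrays. This was ZNF207, a zinc finger protein of the mitotic spindle, with 4.33, 4.02 and 4.54 induced against 3.29, 2.84 and 3.36 uninduced, a change of 1.14 (limma adjusted p = 0.00123 with 6 arrays and 0.309 with 12). Its induced values all lay above the uninduced ones and all 27 of its probe sets were higher. Without uninduced replicate 2 the change was 0.98 and passed in the fit of the Xrn1 arrays (limma adjusted p = 0.0194). With 6 arrays it was 0.94 after centring and passed (limma adjusted p = 0.0152). After loess the change was 0.82 and did not pass (limma adjusted p = 0.0603 with 6 arrays). STRN4 and TLE1 had changes of 0.64 and 0.67 without overlap and passed in neither fit. ITGB1, VDAC3 and ILF2 had changes of -0.08, -0.01 and 0.01, BOP1 0.30 and RPLP0 0.14 (95% interval -0.53 to 0.81); their groups overlapped.

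Decapping and 5′ to 3′ decay factors had a median change of 0.42 over 25 genes. In the fit of 6 arrays 3 passed (12%), while 0 passed in that of 12 arrays. Of the 25, 11 were higher without overlap (44.0%, against 31.3% of all genes). The 3 were DCP1B, a decapping cofactor, with 3.43, 3.28 and 3.61 against 2.85, 2.15 and 2.63, a change of 0.90; PATL1, a scaffold of the decapping complex, with 0.85; and LSM7, of the LSM ring that binds deadenylated ends, with 0.77. DCP2, the decapping enzyme itself, had a change of -0.41 and XRN1 one of -0.30 (95% interval -0.97 to 0.37), and both groups of each overlapped. In the fit of the Xrn1 arrays without uninduced replicate 2, 0 of the list passed, and its median was 0.26.

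The list for deadenylation, the exosome and nonsense-mediated decay had 7 of 40 genes called with 6 arrays (17.5%) and a median of 0.34. These were TOB1 and TOB2, which recruit the deadenylase, the exosome subunits EXOSC1 and EXOSC8, and SMG6, SMG8 and SMG9 of nonsense-mediated decay, with changes between 0.76 and 0.87. SMG6, the endonuclease of that pathway, had 3.46, 3.39 and 3.46 against 2.67, 2.18 and 2.90. Uninduced replicate 2 was its lowest array, and without that array 0 of the 40 passed.

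RNAs made in mitochondria, which have no cap, had the largest median of all lists, 0.85 over 10 genes. In the fit of 6 arrays 6 passed, and the same 6 did not overlap, while in that of 12 arrays ND4 passed. ND2, a further subunit of complex I, had 8.11, 7.40 and 8.23 against 6.28, 6.92 and 6.47, a change of 1.36. ND5 had 8.08, 7.69 and 8.66 against 6.90, 7.41 and 6.85, a change of 1.09. COX3, of complex IV, had 7.79, 7.33 and 7.99 against 6.75, 6.92 and 6.60, a change of 0.94. Induced values of these genes were all higher, though ND5 only by a small margin. ND1 (0.88) and COX2 (0.83) passed with 6 arrays too.

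The other 4 did not pass and their groups overlapped. CYTB, ATP6 and COX1 had changes of 0.53, 0.50 and 0.37. ND6, a complex I subunit that is read from the opposite strand of mitochondrial DNA to the other protein genes, had a change of -0.18 (6.44, 6.65 and 6.14 against 6.82, 6.41 and 6.54). The list's median was 0.94 without uninduced replicate 2, with 6 passing in the fit of the Xrn1 arrays, and 0.66 and 0.71 after centring and loess, with 3 passing after each. These genes share long precursor transcripts and are not independent of one another, and copies in nuclear DNA may be read by the same probes.

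**Figure D3:**
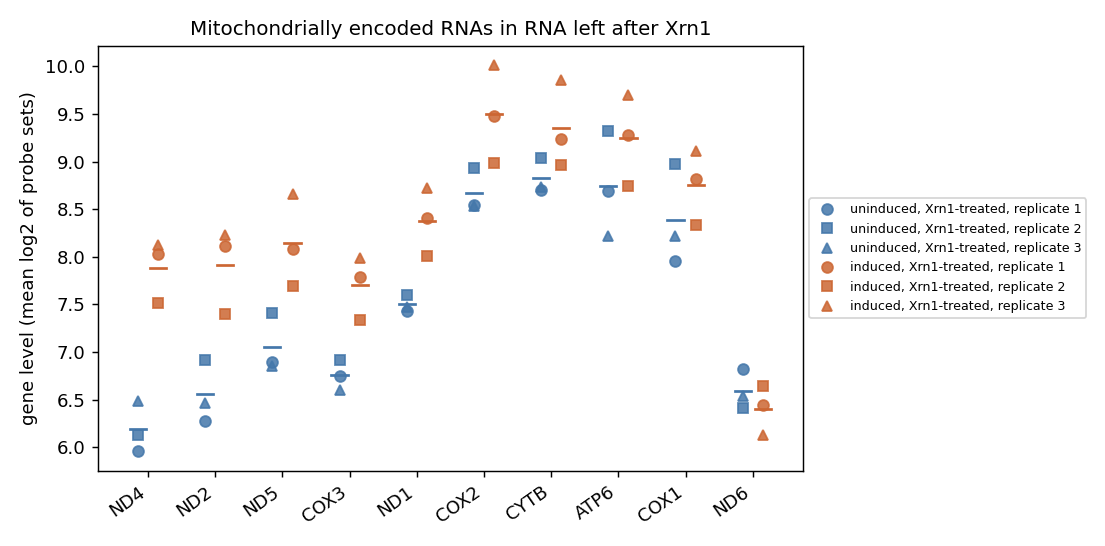
Gene values (mean log2 of probe sets) of the 10 mitochondrially encoded RNAs on the 3 uninduced (blue) and 3 induced (orange) Xrn1-treated arrays, ordered by change; symbols mark the replicate and bars the group mean. Induced values lie above uninduced ones without overlap for 6 genes, from ND4 to COX2, whereas ND6 has the lower induced mean.

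Nuclear genes for oxidative phosphorylation had 20 of 74 called higher with 6 arrays (27.0%) and a median of 0.44. Of the 74, 28 were higher without overlap (37.8%, against 31.3% of all genes). The called genes included subunits of complex I, complex III (UQCR10 and UQCR11), complex IV and the ATP synthase. NDUFA3 of complex I had 5.29, 5.01 and 5.78 against 3.73, 4.04 and 4.15, a change of 1.39. NDUFA7 of the same complex had 5.00, 4.94 and 5.10 against 4.14, 3.27 and 3.88, a change of 1.25. COX6B1 and COX8A of complex IV changed by 1.08 each. All 4 were apart between groups, and 0 of the list passed with 12 arrays (limma adjusted p = 0.0764 for NDUFA3). When uninduced replicate 2 was left out, 8 passed in the fit of the Xrn1 arrays and the median was 0.37. After centring 5 of the 74 passed, where 110 of all 16883 genes were called higher. After loess 2 of the 74 passed, where 54 of all genes were called higher. The list's medians were then 0.24 and 0.10.

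Cytosolic ribosomal protein mRNAs, most of which start with a pyrimidine tract behind the cap, had a median of 0.37 over 69 genes, with 63 positive. With 6 arrays 9 were called (13%), and 26 were higher without overlap (37.7%, against 31.3% of all genes). Beside RPS13 and RPL41 these were RPS29 with 6.03, 5.81 and 5.91 against 4.89, 4.72 and 4.51, a change of 1.21, RPS27 with 1.14, RPS26 with 0.98, RPL23A with 0.90, RPL39 with 0.87, RPL21 with 0.77 and RPL27 with 0.75. The spread within the list was wide, from -0.33 to 2.21. Without uninduced replicate 2, 11 passed in the fit of the Xrn1 arrays, and the median was 0.44. After loess the median was 0.07 and 2 passed.

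Mitochondrial ribosomal proteins had the same median, 0.37, over 77 genes, with 12 called in the fit of 6 arrays (15.6%). MRPS12 had 4.23, 4.25 and 4.26 against 3.04, 2.32 and 3.46, a change of 1.31, and MRPS18B had 4.84, 4.49 and 5.00 against 3.69, 3.91 and 3.69, a change of 1.01. MRPL48 and MRPL10 changed by 0.89 and 0.88. Groups were apart for these 4, and 0 of the list passed with 12 arrays. The fit of the Xrn1 arrays without uninduced replicate 2 kept 5 of the 12, with a median of 0.32; after centring 2 passed and after loess 1.

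Proteasome subunits had 7 of 31 called with 6 arrays (22.6%) and a median of 0.33. PSMC4, an ATPase of the regulatory particle, had 4.71, 4.57 and 5.03 against 3.98, 3.36 and 4.11, a change of 0.96, and PSMB3 and PSMA1 of the core changed by 0.93 and 0.92. Without uninduced replicate 2, 1 of them passed, and after centring 0. Translation factors had 3 of 37 called (8.11%) and a median of 0.29: EIF3G with 5.11, 4.63 and 5.18 against 4.13, 3.39 and 4.30, a change of 1.03, EIF3L with 0.95 and EIF6, which keeps ribosomal subunits apart, with 0.90. The splicing list had 5 of 51 called (9.8%), among them the Sm core proteins SNRPD2, with 5.47, 5.38 and 5.35 against 4.26, 3.78 and 4.24, a change of 1.31, and SNRPB with 1.17. With uninduced replicate 2 left out of the fit of the Xrn1 arrays, 0 translation factors and 3 splicing genes passed, 2 of the latter being among the 5.

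Transcripts of stress and growth signalling lay near the background share or moderately above it. In the integrated stress response list 4 of 32 passed with 6 arrays (12.5%), namely DDIT4, an inhibitor of mTORC1 signalling, with 3.62, 3.40 and 3.65 against 2.52, 2.27 and 3.19, a change of 0.90, the transcription factor ATF5 with 0.87, PYCR1 of proline synthesis with 0.79 and the amino acid transporter SLC7A5 with 0.75. Of 45 immediate early and short-lived mRNAs 3 passed (6.67%): ZFP36, which directs decay of AU-rich mRNAs, with 0.87, JUNB with 0.80 and PLAUR with 0.74. Sterol synthesis had 3 of 20 (15%), namely DHCR7 with 5.12, 4.68 and 5.44 against 4.25, 3.45 and 4.54, a change of 1.00, EBP with 0.85 and NSDHL with 0.76. Without uninduced replicate 2, 0 genes of these lists passed in the fit of the Xrn1 arrays. After centring or loess 0 genes of these lists were called higher with 6 arrays. Of the sterol synthesis list 2 genes were then called lower after centring and 1 after loess.

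Cell cycle lists were near the background share or moderately above it. DNA replication genes had 5 of 43 called with 6 arrays (11.6%), with GINS3 at 0.79 and CDC45, POLA2 and POLE2 at 0.78 each. Mitotic genes had 3 of 49 (6.12%): the kinases PLK1, with 5.20, 4.96 and 5.39 against 4.24, 3.99 and 4.57, a change of 0.92, and AURKB with 0.73, and the securin PTTG1 with 0.77, whose groups overlapped. Of the secretory pathway list 5 of 59 were called (8.47%), with COPZ1 and COPE of the COPI coat at 0.87 and 0.78, the translocon subunit SEC61B at 0.81 and TM9SF4 at 0.77, and the median was 0.18. Of the cytoskeleton list 1 of 36 was called, the myosin light chain MYL9 with 0.79. Cytosolic heat shock proteins and chaperonin subunits had 2 of 24, STIP1 with 0.91 and BAG3 with 0.81, and a median of 0.05. Without uninduced replicate 2, the fit of the Xrn1 arrays called 0 DNA replication, 2 mitotic, 0 secretory pathway and 1 heat shock gene higher. The cytoskeletal call of MYL9 was lost in that fit. ZYX of the same list passed there instead, with a change of 0.91 (limma adjusted p = 0.0312). After centring or loess 0 genes of these 5 lists were called higher. After centring 1 mitotic gene and 1 heat shock gene were called lower, the latter DNAJB4 with -0.90 (limma adjusted p = 0.0211 with 6 arrays). After loess 0 genes of either list were called lower.

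In 8 further lists 0 members passed in either fit. They were 34 bone and extracellular matrix genes (median -0.02), 19 chaperones of the endoplasmic reticulum (median -0.00), 15 aminoacyl-tRNA synthetases (0.10), 25 nuclear transport genes (0.25), 23 p53 targets (0.27), 30 glycolysis and hypoxia genes (0.36), 16 genes of antigen presentation (0.05) and 21 genes of a second, separate list of markers of other cell types (0.28). These medians range from -0.02 to 0.36, against 0.28 for all genes, and only that of glycolysis and hypoxia lies above 0.28.

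Histone mRNAs of the replication-dependent class, which end in a stem-loop in place of a poly(A) tail, had the lowest median of the lists, -0.38 over 11 of 50 measured genes. Of the 11, 8 had a negative change and 3 a positive one, 2 did not overlap and 0 passed in either fit. H1-4 had 8.0, 7.51 and 8.37 on induced and 8.13, 9.54 and 8.23 on uninduced arrays, a change of -0.67 that was -0.22 without uninduced replicate 2. H2AC6 had 5.11, 4.67 and 4.96 against 5.64, 5.67 and 5.16, a change of -0.58 with the groups apart. Histone genes are near-identical to one another, so a probe set may read several of them. The list's median was -0.21 without uninduced replicate 2. After centring it was -0.57, and 1 gene was called lower with 6 arrays, H1-4 with -0.87 (limma adjusted p = 0.0289). After loess it was -0.52, and 1 gene was called lower, H2AC6 with -0.93 (limma adjusted p = 0.0382). The list did not hold H2AC21, the histone gene named above as called lower with 6 arrays. The count of 0 with the values as deposited is therefore one of the list and not of all such histone genes.

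Among 20 nuclear and noncoding RNAs 1 was called higher and 1 lower with 6 arrays. RN7SK, the RNA polymerase III transcript that holds the elongation factor P-TEFb inactive and carries a monomethyl cap, had 9.90, 9.76 and 10.21 on induced and 10.45, 11.66 and 10.77 on uninduced arrays, a change of -1.01 (limma adjusted p = 0.00575 with 6 arrays and 0.472 with 12). All induced values were lower, and uninduced replicate 2 was the highest array. Without it the change was -0.66 (limma adjusted p = 0.0711 in the fit of the Xrn1 arrays). With all 6 arrays RN7SK still passed after centring, with -1.21 (limma adjusted p = 0.000467), and after loess, with -0.96 (limma adjusted p = 0.0337). SNHG1, a host transcript of small nucleolar RNAs, had a change of 0.77 and passed with 6 arrays. Without uninduced replicate 2 its change was 0.45 and did not pass in the fit of the Xrn1 arrays (limma adjusted p = 0.166). In that fit 1 other gene of the list passed as higher.

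**Figure D4:**
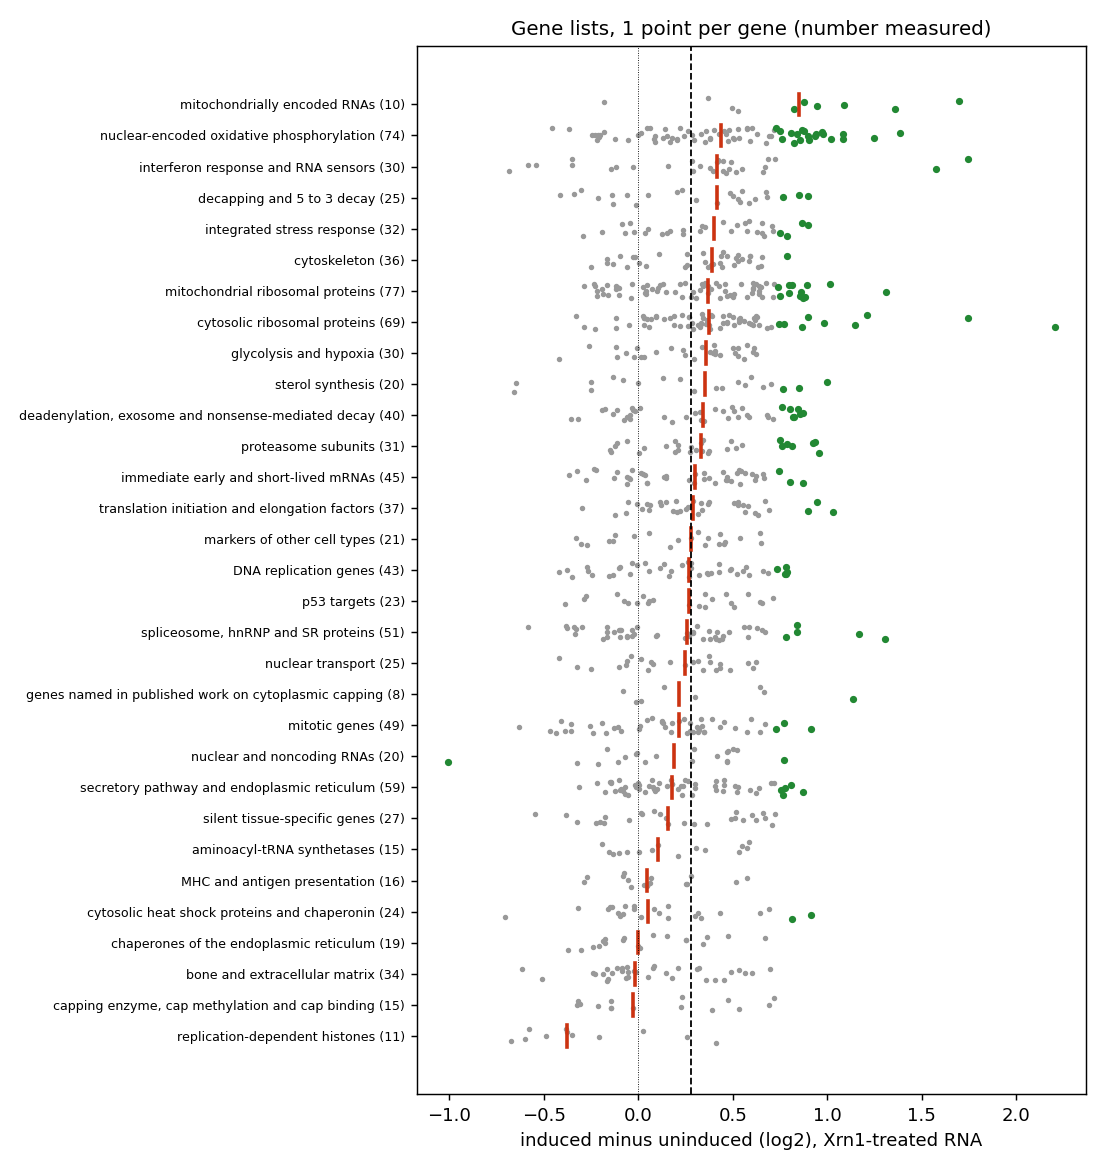
Change with induction (induced minus uninduced, log2) in Xrn1-treated RNA for the measured genes of 31 lists, 1 point per gene with random vertical scatter; green points passed in the fit of 6 arrays, red bars are list medians and the dashed line is the median of all genes. List medians run from -0.38 for histones to 0.85 for mitochondrially encoded RNAs, against 0.28 for all genes.

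In RNA that was not digested, the induced and uninduced arrays differed the other way. The median change there was -0.35, against 0.28 after Xrn1, and few single genes passed: 2 higher (0.0118%) and 5 lower (0.0296%) in the fit of 12 arrays, with 5201 genes at an unadjusted p under 0.05 (limma). The median without Xrn1 was -0.58 when induced untreated replicate 3 was left out, -0.22 without induced untreated replicate 2 and -0.08 after centring. With induced untreated replicate 3 left out, 517 genes passed as higher and 6405 as lower. The test of the difference between both changes called 3479 genes above 0 (20.6%) and 208 below 0 (1.23%) in the fit of 12 arrays (limma adjusted p under 0.05, standard error 0.48). For the 3479 the median change was 0.61 after Xrn1 and -0.82 without it, and every one of them was positive after Xrn1 and negative without it. For the 208 the medians were -0.51 and 0.88, with every gene of opposite sign in the other direction. The split depended on the scaling: 94.4% of the calls were above 0 as deposited, 28.0% after centring each array on its median gene (520 above and 1336 below), 39.0% after loess (165 and 258) and 39.8% after quantile normalisation of gene values. With the sample number as a random block, at an estimated correlation of -0.233, 171 genes were called above 0 and 10 below. Leaving out uninduced Xrn1 replicate 2 left 64 calls and leaving out induced Xrn1 replicate 3 left 50, while 8400 were called without induced untreated replicate 3. With each gene's own spread limma called 0 genes, and 6306 had an unadjusted p under 0.05.

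The largest difference above 0 was that of IFITM3, 3.18: its mean was 4.11 ± 0.34 induced and 2.37 ± 0.38 uninduced after Xrn1, and 3.02 ± 0.31 and 4.45 ± 0.18 without Xrn1 (SD, n = 3). ND4 followed with 2.67, from a change of 1.70 after Xrn1 and -0.98 without it. TMEM258 had 2.64, the pseudogene ULK4P1 2.56 and MRPS12 2.5. In each of these 5 the induced mean was the higher one after Xrn1 and the lower one without it. RPS13 had a difference of 2.48, most of it from the Xrn1-treated arrays, since its change without Xrn1 was -0.28.

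The largest differences below 0 were those of CD302 (-2.39), the olfactory receptor OR2F2 (-2.34), the drug-metabolising enzyme CYP3A4 (-2.16), the receptor-like gene CD200R1L (-2.13) and VHLL, a gene like the von Hippel-Lindau tumour suppressor (-2.02). CD302 had means of 2.16 ± 0.38 and 3.62 ± 0.34 after Xrn1 and of 2.73 ± 0.10 and 1.81 ± 0.24 without it (SD, n = 3, induced and uninduced). All 5 had low values in every group, with no group mean above 3.62, and 4 of them rest on 3 probe sets.

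By list, the share called for a difference above 0 was read against 20.6%. Among mitochondrially encoded RNAs 6 of 10 were called, with a median difference of 1.47. The counts were 26 of 74 nuclear oxidative phosphorylation genes (median 1.02), 29 of 77 mitochondrial ribosomal proteins (0.89), 15 of 40 deadenylation, exosome and nonsense-mediated decay genes (1.10), 10 of 25 decapping genes (0.91), 12 of 32 stress response genes (1.09) and 17 of 69 cytosolic ribosomal proteins (0.74). The median over all genes was 0.70. Capping enzyme genes had 2 of 15 and a median of 0.02, histones 0 of 11 and -0.16, and the silent genes 5 of 27 and 0.35. With the sample number as a random block, where 171 genes were called above 0 in all, the counts were 3 of the 10 mitochondrially encoded RNAs, 9 nuclear oxidative phosphorylation genes, 4 mitochondrial ribosomal proteins, 3 cytosolic ribosomal proteins, 1 decapping gene, 1 stress response gene and 0 of the deadenylation, exosome and nonsense-mediated decay list. Without uninduced Xrn1 replicate 2, where 60 genes were called above 0 in all, they were 3, 5, 2, 3, 0, 0 and 0 in the same order.

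**Figure D5:**
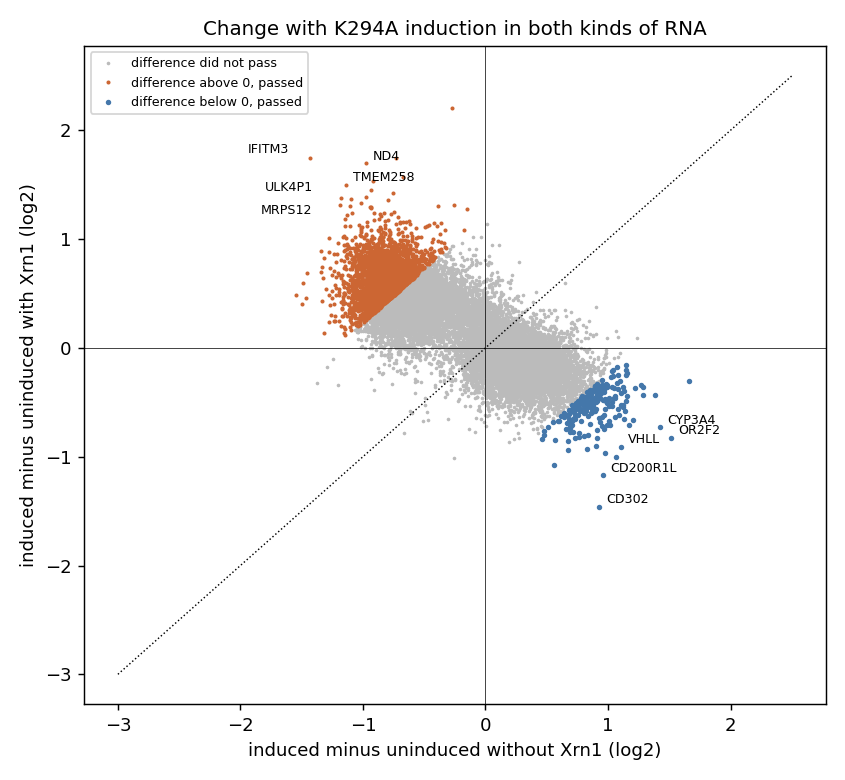
Change with induction (induced minus uninduced, log2) in Xrn1-treated RNA against that in untreated RNA, 1 point per gene; orange and blue points passed for a difference above and below 0, the dotted line marks equal changes, and the 5 largest differences in each direction are named. Orange points lie where the change is positive after Xrn1 and negative without it, with medians of 0.61 and -0.82.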

How the data were processed

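The authors deposited log2 values for 1411399 probe sets on 12 exon arrays, and the submitters' processing notes name RMA and oligo, with versions not given in the sources used here. Of the probe sets, 357604 carried 1 gene symbol and 1038473 none. Probe sets with a mean above the median of 2.04 were kept, a gene's value was the mean of at least 3 of them, and 16883 genes resulted.

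Gene values were fitted with limma 3.58.1 in R 4.3.3 over 4 group means; p was adjusted by Benjamini-Hochberg over all genes, with a threshold of 0.05. The prior was infinite, so genes shared a common SD. The code was tested on simulated data. Alternatives covered probe set filters, scaling, spread, blocks and left-out arrays. Replicates are numbered by sample number, since the titles of 2 induced Xrn1 arrays carry the same replicate number. The fits of only the Xrn1 arrays with further changes, and the one without uninduced replicate 2 of both treatments, were chosen after seeing the data.

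Named genes are the largest rises and falls that passed without overlap (up to 12 each, and up to 8 each at a level of at least 5), up to 4 members a list by smallest p, the 5 largest differences each way, and RNGTT, XRN1, NCK1 and RPLP0; provisional, LINC and antisense names were left out. Some other members called are named where their list's count is given. The comparison and the lists were chosen with earlier results of these data known.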

Additional observations from a re-analysis of the deposited data

Results flagged for a closer look

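The change with induction differed between Xrn1-treated and untreated RNA, by the test of the difference in the fit of 12 arrays, for 3687 genes (limma adjusted p under 0.05); 181 were called with the sample number as a random block and 64 without uninduced Xrn1 replicate 2. Among the named genes the difference was 3.18 for IFITM3, 2.67 for ND4, 2.64 for TMEM258, 2.56 for ULK4P1 and 2.5 for MRPS12. It was -2.39 for CD302, -2.34 for OR2F2, -2.16 for CYP3A4, -2.13 for CD200R1L and -2.02 for VHLL. In all 10 the mean change was of opposite sign in both kinds of RNA.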

How the results depend on the processing

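Against 9 genes called higher in the fit of 12 arrays, the count was 14 with no filter on dim probe sets, 4 with probe sets above the upper quartile, 3 after centring, 4 after cyclic loess, 21 after quantile normalisation, 0 with each gene's own spread (1285 at an unadjusted p under 0.05) and 251 with array weights, whose estimation stopped before convergence. Leaving out 1 array gave 1 to 13. Against 1 gene called lower, the count was 0 with the median of probe sets, with no filter, with the upper quartile and with each gene's own spread, 2 with 1 probe set per gene, 3 after quantile normalisation and 6 with array weights; leaving out 1 array gave 0 to 1. The fit of 6 arrays called 991 higher and 43 lower, 257 and 9 without uninduced Xrn1 replicate 2, 110 and 121 when centred, 54 and 32 after loess, and 0 and 0 with each gene's own spread (2784 at an unadjusted p under 0.05); with each other array left out it called 67, 331, 35, 4576 and 600 higher and 1, 8, 1, 675 and 12 lower (induced 1, 2 and 3, uninduced 1 and 3). Without uninduced replicate 2 of both treatments 0 and 0 were called with the 10 arrays left (502 at an unadjusted p under 0.05).

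The difference of changes was called for 1465 genes with the median of probe sets, 1165 with the upper quartile, 2360 with 1 probe set per gene, 1856 when centred, 423 after loess, 1394 after quantile normalisation, 0 with each gene's own spread, 7229 with array weights and 181 with the sample number as a random block. It was called for 50 to 8400 with 1 array left out, and for 1 without uninduced replicate 2 of both treatments. The causes were not tested.

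The replicate block left 7 genes higher and 0 lower, and 3017 for the difference. The numbers were not taken to pair the samples: deviations of same-numbered Xrn1 arrays correlated at -0.205, -0.128 and 0.12, and only number 3 was closest to its own. Xrn1-treated and untreated arrays of one sample number correlated at -0.442, -0.398 and 0.125 in induced samples. In uninduced samples they correlated at -0.55, -0.708 and -0.241. The fit of 12 arrays behind the 3687 calls for the difference treated these arrays as independent, and its standard error of 0.48 does not allow for this correlation. None of 298 recomputed changes of the 10 called genes changed sign, and 108 no longer passed; RPS13 passed in 27 of 30 settings and UXT in 13. For all 138 named genes 12 of 4130 values changed sign, in 3 genes. With 1 array left out, a group holds 2, and the spread is pooled over groups.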
